A study of Mus musculus with 6 samples.

Results

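The core spliceosome snRNP components examined here are 54 genes of the 14416 in the deposited count table. They are the rows whose symbols begin with Snrp, Snrnp, Sf3a, Sf3b, Lsm, Prpf or U2af, each but Snrp and U2af followed by a number, without pseudogenes. All 54 passed the filter on low counts. RNA had been sequenced from lung Lin-Thy1.2+ innate lymphoid cells (ILCs) in 3 RBM3KO and 3 WT libraries, all from the C57BL/6J strain. The RBM3KO mice lack Rbm3, which encodes a cold-inducible RNA-binding protein, and the sources used here do not say how the allele was made. Mice of both genotypes had received 25 µg of the mould allergen Alternaria alternata 3 times over 7 days, so no unchallenged cells enter the comparison. The sources used here do not state ages, lineage antibodies or whether a library came from 1 mouse or a pool, so a p-value covers no more than the scatter among these libraries, which may be technical. The comparison of the genotypes asks whether transcripts of the splicing machinery differ when RBM3 is missing from these cells.

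The spliceosome removes introns from pre-mRNA. Its building blocks are small nuclear ribonucleoproteins (snRNPs), each made of a short U-rich RNA, a ring of Sm or LSm proteins and proteins particular to that snRNP. The U1 snRNP recognises the start of an intron, U2AF and the U2 snRNP recognise its end and branch site, and the U4/U6.U5 tri-snRNP then joins and is remodelled into the catalytic centre. Cells that grow and divide need a steady supply of these parts.

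The libraries held between 7498247 counts (RBM3KO replicate 3) and 25068137 counts (WT replicate 3). A count of 0 in a library allows up to 3 counts, which is 0.117 to 0.404 CPM here and covers counting error only. Levels are CPM (a library's counts scaled to a common total, here with edgeR's TMM factors), unless a summed level is given. Rbm3 itself had 26.5, 22.4 and 31.6 CPM in RBM3KO, against 270, 314 and 293 CPM in WT, so each library matched its label. All 13 ILC identity genes, among them Thy1, Id2 and Gata3, were detected. The T cell markers summed to between 522 and 683 CPM of the total count in RBM3KO and between 440 and 559 CPM in WT. Most of this came from Lat and Cd3g. Cd3e averaged 20.7 CPM in RBM3KO and 22.2 CPM in WT, and Cd3d averaged 7.73 and 16.7 CPM. Cd4, Cd5, Cd6, Cd8a and Cd8b1 each averaged under 6 CPM in either genotype, though Cd4 reached 11.9 CPM in WT replicate 3. The B cell and plasma cell markers summed to between 40.4 and 44.5 CPM in RBM3KO and between 67.5 and 90.2 CPM in WT. The macrophage, monocyte and dendritic cell markers summed to between 321 and 709 CPM in RBM3KO and between 248.5 and 929 CPM in WT. Their sums were highest in RBM3KO replicate 2 and WT replicate 3. The epithelial markers summed to between 21.1 and 362 CPM in RBM3KO and between 21.8 and 128 CPM in WT. RBM3KO replicate 3 had the highest epithelial sum. Both lists overlapped between the genotypes and were uneven within each.

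No snRNP gene passed the test between the genotypes. Of the 54 members, 0 were higher and 0 were lower in RBM3KO by edgeR's quasi-likelihood test at an adjusted p under 0.05, while 1.25% of the 11382 tested genes, Rbm3 included, passed it (0.246% higher and 1.00% lower). The lowest adjusted p of a member was 0.0994, that of Lsm2. At an unadjusted p under 0.05, 8 members were lower and 1 was higher, which is 14.8% and 1.85% of the members, beside 6.87% lower and 5.46% higher among all tested genes. limma-voom called 0 members, and DESeq2 called 1, Lsm2.

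The estimates leaned downwards by a small amount. They were below 0 for 40 of the 54 members, or 74.1%, against 49.1% of all tested genes. The median log2 fold change (RBM3KO minus WT) was -0.14 over the members and 0.01 over all tested genes. In 15 members, or 27.8%, all 3 RBM3KO libraries lay below all 3 WT libraries, as they did in 10.5% of all tested genes, and in 1 member, Prpf39, they lay above, as in 8.43%. Members above numbered 6, 2 and 3 without RBM3KO replicates 1, 2 and 3 in turn, 2 without WT replicate 1, 2 without WT replicate 2 and 0 at equal depth. With 1 library left out, 2 libraries are set against 3 and more genes separate, between 12% and 14.0% of all tested genes above, and at equal depth 8.82%. The members share libraries and scaling, so these counts are descriptions and not tests. The summed level of the members was 4878, 5082 and 4908 CPM of the total count in RBM3KO, against 5840, 5538 and 5504 CPM in WT. The sums did not overlap, and the lowest WT sum exceeded the highest RBM3KO sum. In bulk samples like these, fewer cells with many snRNP transcripts and less snRNP mRNA per cell cannot be told apart.

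**Figure D1:**
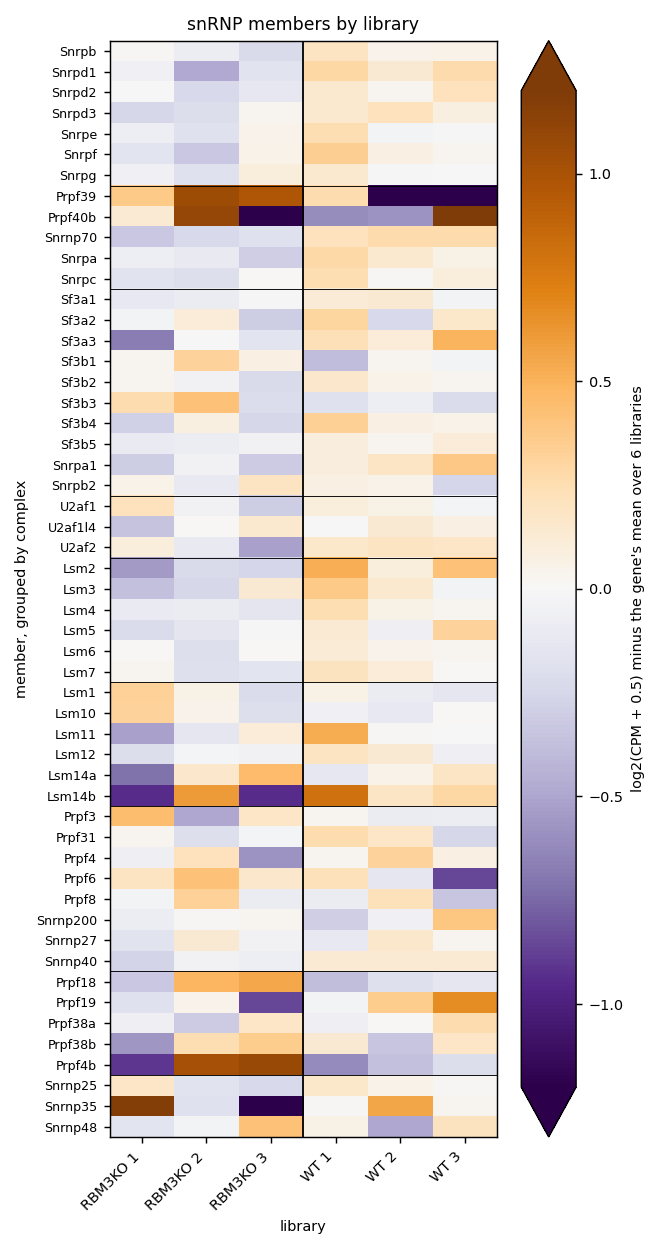
Level of 53 of the 54 members (rows, grouped by complex) in each library (columns), as log2(CPM + 0.5) minus the gene's mean over the 6 libraries. The Sm and U6 LSm rows are mostly paler or purple in RBM3KO and orange in WT, while Prpf39, Prpf40b, Prpf4b and Snrnp35 vary widely between libraries of 1 genotype.

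The promoters shown are those of the 2 members with the lowest p-values that have an entry in the RefSeq promoter table (GRCm38.p6), Lsm2 and Snrnp70. Each sequence covers the 250 bases before the transcription start site on the gene's own strand, chr17:34981604-34981853 (plus strand) for Lsm2 and chr7:45395743-45395992 (minus strand) for Snrnp70. Capitals mark GCATGCG or its reverse complement CGCATGC, the core recognised by the factor NRF1, where the pair overlap.
Lsm2: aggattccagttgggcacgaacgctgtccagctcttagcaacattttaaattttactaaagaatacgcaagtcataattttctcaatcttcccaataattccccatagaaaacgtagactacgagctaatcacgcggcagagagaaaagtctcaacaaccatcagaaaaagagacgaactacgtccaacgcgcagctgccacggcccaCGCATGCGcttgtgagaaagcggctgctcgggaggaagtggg
Snrnp70: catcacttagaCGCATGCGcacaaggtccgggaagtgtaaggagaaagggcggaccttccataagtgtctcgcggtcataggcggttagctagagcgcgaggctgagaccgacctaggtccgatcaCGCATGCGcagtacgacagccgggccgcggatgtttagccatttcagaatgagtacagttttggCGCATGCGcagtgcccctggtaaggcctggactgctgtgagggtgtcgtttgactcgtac

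The Lsm2 promoter holds 1 such stretch, which begins 42 bases before the start site, and the Snrnp70 promoter holds 3, which begin 239, 124 and 60 bases before it. The motif was chosen after these sequences were read. It was present on either strand in 4 of the 51 promoter windows listed for 43 of the members (7.84%), those of Lsm2, Snrnp70, Lsm10 and U2af1l4. It was present in 6.45% of the windows of tested genes and in 3.58% of all listed windows, each 300 bases long. The core of the ETS factors, CGGAAG or CTTCCG, was more common, in 29 of the 51 windows (56.9%), against 31.7% of the windows of tested genes and 16.9% of all windows. The E-box CACGTG was in 11.8% of the members' windows and 10.1% of those of tested genes, the CCAAT box (CCAAT or ATTGG) in 43.1% and 37.9%, and the E2F core TTGGCGC or GCGCCAA in 9.80% and 4.26%. A match is a description of letters and not a binding site, and no binding was measured here.

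All 7 measured genes of the Sm ring had estimates below 0, and none passed the test. These small proteins form the heptameric collar that each of the U1, U2, U4 and U5 RNAs carries. The median log2 fold change was -0.25 and the range was from -0.46 to -0.09. RBM3KO lay below WT without overlap in 4 of the 7 genes, Snrpb, Snrpd1, Snrpd2 and Snrpd3, as in 10.5% of all tested genes. Snrpd1 (chromosome 18), the Sm gene with the lowest p, had 105, 77.3 and 97.0 CPM in RBM3KO, against 133, 120 and 131 CPM in WT. Its highest RBM3KO library stayed below its lowest WT library (log2 fold change -0.46, SE 0.14, edgeR adjusted p = 0.192). Snrpb (chromosome 2), which encodes SmB and was the most abundant member, had 573, 538 and 485 CPM in RBM3KO, against 650, 585 and 590 CPM in WT (log2 fold change -0.19, SE 0.09, edgeR adjusted p = 0.451). Its genotypes were separated, though the gap between the nearest libraries was smaller than the spread within either. Snrpd3, chosen like Snrpg and Snrpd2 after its values were seen, had 92.6, 95.6 and 111 CPM in RBM3KO and 121, 127 and 116 CPM in WT. Snrpg, whose estimate was nearest 0 in the ring, had 219, 201 and 243 CPM in RBM3KO and 252, 225 and 227 CPM in WT, with overlap. Snrpd2 had 135, 115 and 124 CPM in RBM3KO, against 150, 138 and 157 CPM in WT, and was also separated, at a log2 fold change of -0.25 (SE 0.12, edgeR adjusted p = 0.436). The remaining pair, Snrpe and Snrpf, overlapped, with log2 fold changes of -0.14 and -0.30. Per kilobase of annotated exon, the Sm genes spanned a wide range of levels although their proteins share 1 ring. Snrpb stood at 458 ± 38.4 CPM per kilobase in RBM3KO and 524 ± 30.9 in WT (SD, n = 3 each), and Snrpd3, the lowest, at 32.9 ± 3.34 in RBM3KO and 40.0 ± 1.90 in WT. Sm genes have processed pseudogenes, so reads shared with such copies can be split or lost, and 65.9% of the exon bases of Snrpf overlap exons of Ccdc38 on the opposite strand. The kit does not mark strand, so reads of such a pair cannot be told apart.

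All 6 measured genes of the U6 LSm ring also had estimates below 0, and none passed the test. LSm proteins form the matching collar on U6 RNA, and part of the ring also serves mRNA decay in the cytoplasm. The median log2 fold change was -0.24, with a range from -0.70 to -0.12. RBM3KO lay below WT without overlap in 3 of the 6 genes, Lsm2, Lsm4 and Lsm6, as in 10.5% of all tested genes. Lsm2 (chromosome 17, start 34981862, end 34985891, plus strand, mm10), whose promoter is printed above, had 45.8, 57.1 and 56.1 CPM in RBM3KO, against 96.8, 72.1 and 90.0 CPM in WT. The groups were apart, the means differed by more than the SD of either, and the log2 fold change was -0.70 (SE 0.17), yet the gene missed the threshold with edgeR (adjusted p = 0.0994) and passed it with DESeq2 (-0.70, SE 0.20, adjusted p = 0.0177). Over the 15 alternatives its log2 fold change lay between -0.82 and -0.61. Lsm4 (chromosome 8), the most abundant gene of the ring, had 180, 181 and 175 CPM in RBM3KO, against 230, 201 and 197 CPM in WT (log2 fold change -0.23, SE 0.10, edgeR adjusted p = 0.416). Its RBM3KO libraries lay close together and below every WT library. Lsm6, likewise separated and named after its values were seen, had 172, 150 and 173 CPM in RBM3KO, against 186, 177 and 175 CPM in WT, a log2 fold change of -0.12 (SE 0.11, edgeR adjusted p = 0.754). Lsm3, Lsm5 and Lsm7 overlapped, with log2 fold changes of -0.32, -0.26 and -0.20. RefSeq lists Naa38 as an older name of Lsm8, the member that defines the nuclear ring. The link of that row to Lsm8 rests on this name alone. The row Naa38, which the choice of symbols left out, had 104, 76.7 and 90.6 CPM in RBM3KO and 115, 94.3 and 128 CPM in WT, with overlap (log2 fold change -0.31, SE 0.16, edgeR adjusted p = 0.485).

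**Figure D2:**
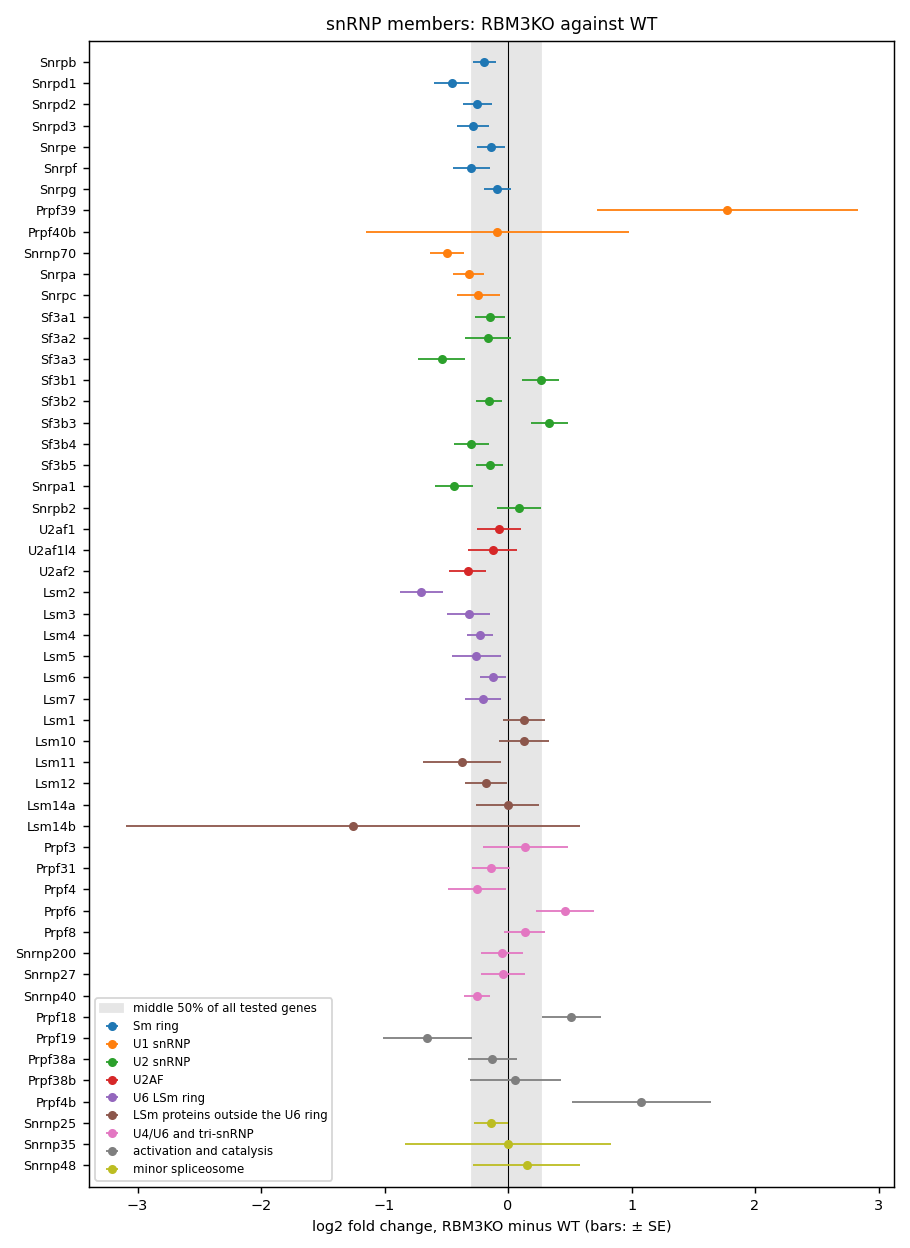
Log2 fold change (RBM3KO minus WT) of 53 of the 54 members with its standard error, coloured by complex, and the range between the quartiles of all tested genes as a grey band. The Sm and U6 LSm points all lie left of 0, with Lsm2 at -0.70, and the members with the widest bars, Lsm14b, Prpf39 and Prpf40b, are those with the fewest counts.

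The LSm proteins outside the U6 ring were mixed, with 4 estimates below 0 and 2 above. Lsm1 encodes the subunit that replaces LSm8 in the cytoplasmic decay ring and had the highest mean CPM of them. It had 93.3, 77.7 and 64.1 CPM in RBM3KO and 77.8, 70.1 and 68.0 CPM in WT, with wide overlap (log2 fold change 0.13, SE 0.17, edgeR adjusted p = 0.870). Per kilobase of annotated exon Lsm10 stood higher, with a mean over all libraries of 46.8 CPM against 28.2 for Lsm1. Lsm11, a protein of the U7 snRNP that processes histone mRNA, had 11.9, 15.8 and 18.7 CPM in RBM3KO and 25.2, 17.5 and 17.3 CPM in WT (log2 fold change -0.37, SE 0.32, edgeR adjusted p = 0.741). WT replicate 1 alone stood high. Lsm14a, a cytoplasmic mRNP protein outside the spliceosome, ran from 42.1 CPM in RBM3KO replicate 1 to 77.4 and 95.3 CPM in the other RBM3KO libraries, against 63.5, 72.2 and 79.1 CPM in WT, so its means were alike while RBM3KO spread wider. Its paralog Lsm14b had 0, 16 and 0 counts in RBM3KO and 16, 10 and 17 counts in WT, too few for a fold change. Lsm10, of the U7 snRNP, and Lsm12 overlapped between the genotypes, at log2 fold changes of 0.13 and -0.18.

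Genes of the U1 snRNP split by role. The 3 genes of its own core proteins, Snrnp70, Snrpa and Snrpc, lay lower in every RBM3KO library than in any WT library. The same separation was seen in 10.5% of all tested genes, and none of the 3 passed the test. Snrnp70 (chromosome 7, start 45376453, end 45395742, minus strand, mm10) encodes U1-70K, which binds the first stem-loop of U1 RNA and contacts splicing regulators. It had 62.0, 66.3 and 69.6 CPM in RBM3KO, against 90.7, 94.3 and 94.3 CPM in WT. The libraries of each genotype lay close together and far from the other genotype (log2 fold change -0.50, SE 0.14, edgeR adjusted p = 0.138). Over the 15 alternatives the value lay between -0.55 and -0.44, and no alternative called it. Snrpa, which encodes another RNA-binding protein of U1, had 116, 113 and 98.9 CPM in RBM3KO, against 148, 134 and 127 CPM in WT (log2 fold change -0.32, SE 0.13, edgeR adjusted p = 0.322). Snrpc, named after its values were seen, encodes a zinc-finger protein that helps U1 bind the splice site. It had 47.9, 46.9 and 53.8 CPM in RBM3KO, against 63.9, 54.3 and 57.4 CPM in WT, separated by a narrow gap (log2 fold change -0.24, SE 0.17, edgeR adjusted p = 0.661). The genes of U1-associated proteins were scarcer and varied widely. Prpf39 had 41, 77 and 32 counts in RBM3KO and 33, 9 and 11 counts in WT, and 14.7% of its exon bases overlap Fkbp3 on the opposite strand.

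In the U2 snRNP and U2AF, 10 of 13 genes had estimates below 0, among them all 3 U2AF genes, and none passed. The U2 snRNP pairs with the branch site, and its SF3A and SF3B complexes hold it there. Snrpa1, which encodes a leucine-rich repeat protein of U2, had 63.3, 76.1 and 62.9 CPM in RBM3KO, against 83.1, 88.6 and 102 CPM in WT. Every RBM3KO library lay below every WT library (log2 fold change -0.44, SE 0.16, edgeR adjusted p = 0.258), as for Sf3a3 and Sf3b5, chosen after their values were seen. Such a separation was seen in 10.5% of all tested genes. Sf3a3 had 51.5, 81.9 and 73.6 CPM in RBM3KO, against 96.2, 88.3 and 116 CPM in WT (log2 fold change -0.54, SE 0.19, edgeR adjusted p = 0.259), with RBM3KO replicate 1 lowest. Sf3b5 differed less, at 125, 127 and 130 CPM in RBM3KO and 142, 136 and 144 CPM in WT (log2 fold change -0.15, SE 0.11, edgeR adjusted p = 0.672). Sf3a1, Sf3a2 and Sf3b4 also had estimates below 0 but overlapped between the genotypes, with log2 fold changes from -0.30 to -0.15. Sf3b2, the SF3B gene with the highest mean of the group, had 290, 277 and 243 CPM in RBM3KO and 317, 295 and 288 CPM in WT, with a small overlap (log2 fold change -0.15, SE 0.10, edgeR adjusted p = 0.627). Sf3b3 was the only member higher at an unadjusted p under 0.05 and was named after its values were seen. It had 304, 340 and 219 CPM in RBM3KO and 225, 243 and 218 CPM in WT, so RBM3KO replicates 1 and 2 stood high and replicate 3 lay within WT (log2 fold change 0.33, SE 0.15, edgeR adjusted p = 0.392). Sf3b1, the subunit that contacts the branch site and is often mutated in myeloid disease, also had an estimate above 0 (log2 fold change 0.26, SE 0.15, edgeR adjusted p = 0.548). RefSeq gives 0610009D07Rik as an older name of Sf3b6, and that row, outside the choice of symbols, had 193, 176 and 190 CPM in RBM3KO and 163, 177 and 147 CPM in WT (log2 fold change 0.20, SE 0.11, edgeR adjusted p = 0.529). U2af2, the large U2AF subunit that binds the polypyrimidine tract, had 170, 147 and 111 CPM in RBM3KO, against 178, 182 and 179 CPM in WT. The WT libraries were nearly level and the RBM3KO libraries spread below them (log2 fold change -0.33, SE 0.15, edgeR adjusted p = 0.406). U2af1, the small subunit that reads the AG at the intron's end, had 70.8, 59.5 and 49.7 CPM in RBM3KO and 65.6, 63.8 and 60.3 CPM in WT, with overlap. Of the exon bases of U2af1l4, another of the U2AF genes, 95.3% overlap exons of Gm49396 on the same strand. A further overlap, with Psenen on the opposite strand, covers 9.64%, so reads there cannot be told apart.

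**Figure D3:**
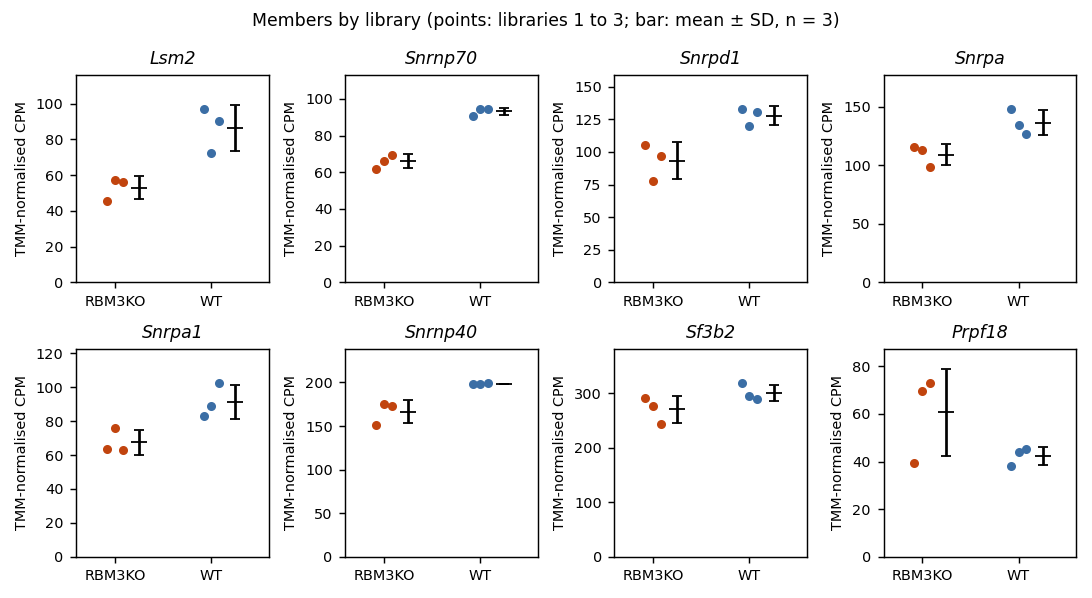
Level of 8 members in each library, in TMM-normalised CPM, with the mean ± SD (n = 3) beside the points. The RBM3KO points of Lsm2, Snrnp70, Snrpd1, Snrpa, Snrpa1 and Snrnp40 lie below all WT points, those of Sf3b2 overlap WT slightly, and those of Prpf18 split, with replicate 1 at the WT level and replicates 2 and 3 above it.

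The tri-snRNP genes, which encode the U5 and U4/U6 proteins that deliver the catalytic RNAs, were close to level between the genotypes. Of 8 genes, 5 had estimates below 0 and the median log2 fold change was -0.05. Only Snrnp40 was separated, below WT, as were 10.5% of all tested genes. Snrnp40, a U5 protein built of WD repeats, had 151, 176 and 173 CPM in RBM3KO, against 198, 198 and 199 CPM in WT (log2 fold change -0.25, SE 0.11, edgeR adjusted p = 0.365). Prpf8, the scaffold of the catalytic centre, had 127, 163 and 122 CPM in RBM3KO and 122, 151 and 102 CPM in WT, and Snrnp200, the helicase that unwinds U4 from U6, had 105, 112 and 113 CPM in RBM3KO and 89.6, 106 and 145 CPM in WT. Both were named after their values were seen, and both overlapped. Prpf6, which bridges U5 to U4/U6 and was named in the same way, had the highest estimate of the group, with 94.4, 111 and 92.2 CPM in RBM3KO and 96.4, 75.2 and 45.2 CPM in WT (log2 fold change 0.46, SE 0.24, edgeR adjusted p = 0.479). There the WT libraries spread and WT replicate 3 stood low. Prpf3, Prpf4, Prpf31 and Snrnp27 had log2 fold changes from -0.25 to 0.14 and overlapped. Among the 5 genes that act at activation and catalysis, Prpf18, which is needed for exon joining, had 39.5, 69.6 and 72.8 CPM in RBM3KO and 38.2, 43.9 and 45.2 CPM in WT (log2 fold change 0.51, SE 0.24, edgeR adjusted p = 0.419). Prpf4b, a kinase of the tri-snRNP named after its values were seen, also split, at 3.65, 15.2 and 15.9 CPM in RBM3KO and 4.58, 5.53 and 6.27 CPM in WT (log2 fold change 1.08, SE 0.56, edgeR adjusted p = 0.484). Prpf19, also named after its values were seen, encodes a ubiquitin ligase of the complex that stabilises the active spliceosome. It had 12.7, 14.7 and 7.67 CPM in RBM3KO and 14.0, 18.3 and 23.0 CPM in WT, with overlap (log2 fold change -0.65, SE 0.36, edgeR adjusted p = 0.524). In Prpf18 RBM3KO replicate 1 lay within the WT range, in Prpf4b it lay below every WT library, and in both genes RBM3KO replicates 2 and 3 lay above every WT library. The 3 minor spliceosome genes, which serve the rare U12-type introns, overlapped between the genotypes. Snrnp25 was the most abundant, with 139, 109 and 104 CPM in RBM3KO and 137, 127 and 124 CPM in WT (log2 fold change -0.14, SE 0.14, edgeR adjusted p = 0.797).

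Members with estimates above 0 had longer and more AT-rich transcripts than the rest. The 14 members above 0 had a median annotated exon length of 3456 bases and a median GC content of 45.7%, against 1577 bases and 51.0% in the 40 members below 0. Over all tested genes with a value the medians were 3187 bases and 50.6%. Spearman's rho between the log2 fold change and exon length was 0.36 over the 54 members and 0.11 over 11276 tested genes, and with GC content it was -0.35 and -0.06. These are correlations across genes measured in the same libraries, so genes are not independent replicates, and low counts widen the scatter of some members. With an offset that removed the trend with GC content in each library, the members' median log2 fold change was -0.13 and 39 estimates were below 0.

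**Figure D4:**
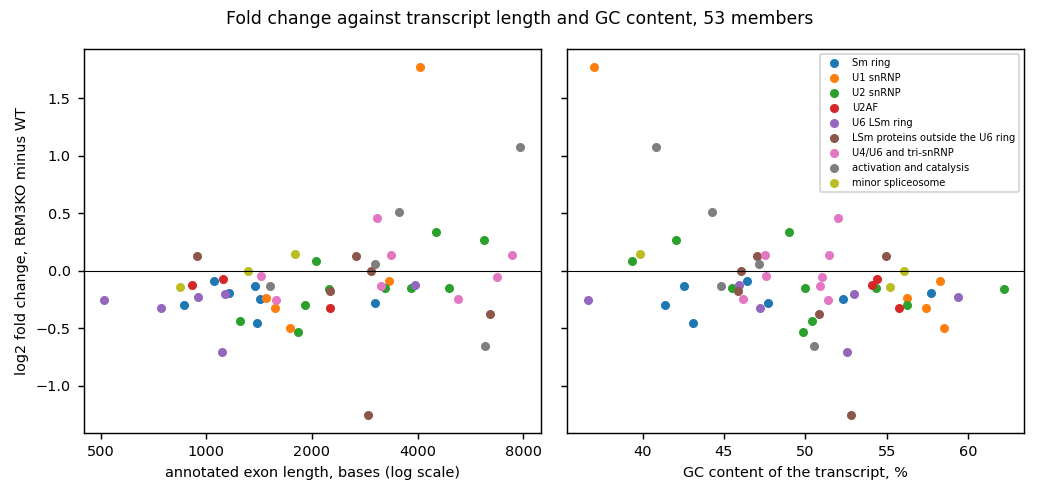
Log2 fold change (RBM3KO minus WT) of 53 of the 54 members against annotated exon length (left, log scale) and transcript GC content (right), coloured by complex. The Sm and U6 LSm points lie below 0, while Lsm10, outside that ring and of short exon length, lies above it. The 2 highest points, Prpf39 and Prpf4b, have a large exon length and a GC content under 42%.

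Around the snRNPs, 96 other genes of the spliceosome and its assembly line were described by lists written by function. Of these, 1 rose, 0 fell and 95 did not pass the test, with a median log2 fold change of -0.03, and 49 of 96 estimates were below 0. Of all tested genes, 0.246% were higher, 1.00% were lower and 49.1% had estimates below 0. The gene that rose was Ddx5, a DEAD-box helicase that associates with U1. It had 1247, 1339 and 1306 CPM in RBM3KO, against 928, 948 and 967 CPM in WT, with no overlap (log2 fold change 0.45, SE 0.08, edgeR adjusted p = 0.0193). Its call ended without RBM3KO replicate 2 (adjusted p = 0.0683), WT replicate 1 (0.141), WT replicate 2 (0.0958) and WT replicate 3 (0.0618), while the log2 fold change stayed between 0.42 and 0.48 over all 15 alternatives. Ppil1, a prolyl isomerase of the activated spliceosome, had 143, 112 and 115 CPM in RBM3KO, against 199, 187 and 175 CPM in WT, and missed the threshold (log2 fold change -0.60, SE 0.13, edgeR adjusted p = 0.0554). Strap, which works with the SMN complex that loads Sm rings onto RNA, had 138, 153 and 154 CPM in RBM3KO, against 190, 202 and 201 CPM in WT (log2 fold change -0.42, SE 0.10, edgeR adjusted p = 0.105).

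Of the 21 tested genes of Sm ring assembly and snRNP maturation, 0 passed. Their median log2 fold change was -0.14, the same as that of the snRNP genes. Estimates were below 0 in 57.1% of them, against 74.1% of the snRNP genes and 49.1% of all tested genes. RBM3KO lay below WT without overlap in 9.52% of them, against 27.8% of the snRNP genes and 10.5% of all tested genes. The 9 tri-snRNP proteins outside the symbol rule had a median of -0.21, with Nhp2l1 lowest in p at 236, 219 and 259 CPM in RBM3KO and 302, 262 and 265 CPM in WT (log2 fold change -0.21, edgeR adjusted p = 0.461). The Prp19-associated complex and the exon junction complex had medians of -0.06 over 17 genes and -0.09 over 9. Of the exon junction complex Magoh had the lowest p (log2 fold change -0.42, SE 0.20, edgeR adjusted p = 0.419). Medians were above 0 for the 12 helicases and step factors (0.11), the 11 U2-associated factors (0.08), the 9 minor spliceosome proteins (0.02) and the 8 U1-associated proteins (0.03). Their genes with the lowest p were Gpkow (log2 fold change 0.41, edgeR adjusted p = 0.329), Htatsf1 (1.23, edgeR adjusted p = 0.283) and Zrsr2 (0.58, edgeR adjusted p = 0.579), beside Ddx5.

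The Sm, U6 LSm and cell cycle sums were each lower in RBM3KO than in WT. The Sm ring genes summed to 1398, 1305 and 1399 CPM of the total count in RBM3KO, against 1742, 1559 and 1590 CPM in WT. These sums and those that follow are without the TMM factors that the values of single genes carry. The U6 LSm ring genes summed to 558, 557 and 599 CPM of the total count in RBM3KO, against 764, 675 and 684 CPM in WT. The 28 cell cycle genes summed to 2753, 2910 and 2747 CPM of the total count in RBM3KO, against 5361, 4605 and 4427 CPM in WT. By edgeR 16 of the 28 were lower and 0 higher, beside 1.00% lower and 0.246% higher among all tested genes. In all 3 sums the genotypes did not overlap and WT replicate 1 was highest. Within the genotypes the orders of the cell cycle genes and the rings otherwise differed. RBM3KO replicate 2 was the highest of its genotype for the cell cycle genes and the lowest for both rings. In the U6 LSm ring it was nearly level with RBM3KO replicate 1 (556.8 and 557.5 CPM). WT replicate 2 exceeded WT replicate 3 for the cell cycle genes and lay below it for both rings. For the sum of all members, RBM3KO replicate 2 was the highest of its genotype, as for the cell cycle genes. The WT order of that sum was also that of the cell cycle genes. The sums of the 13 ILC identity genes were instead higher in RBM3KO than in WT. They lay between 7393 and 7807 CPM of the total count in RBM3KO and between 5517 and 6647 CPM in WT. In 8 of the 13 all RBM3KO libraries lay above all WT libraries, as in 8.43% of all tested genes, and none of the 13 passed the test. Malat1, a nuclear long noncoding RNA, had 443, 327 and 731 CPM in RBM3KO, against 260, 206 and 302 CPM in WT, and missed the threshold (log2 fold change 0.96, SE 0.25, edgeR adjusted p = 0.109). The part of the cell cycle genes, the cell type markers, the ILC identity genes and Malat1 in the snRNP values was not tested. With 2 genotype clusters of 3 libraries no correlation across libraries is given.

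**Figure D5:**
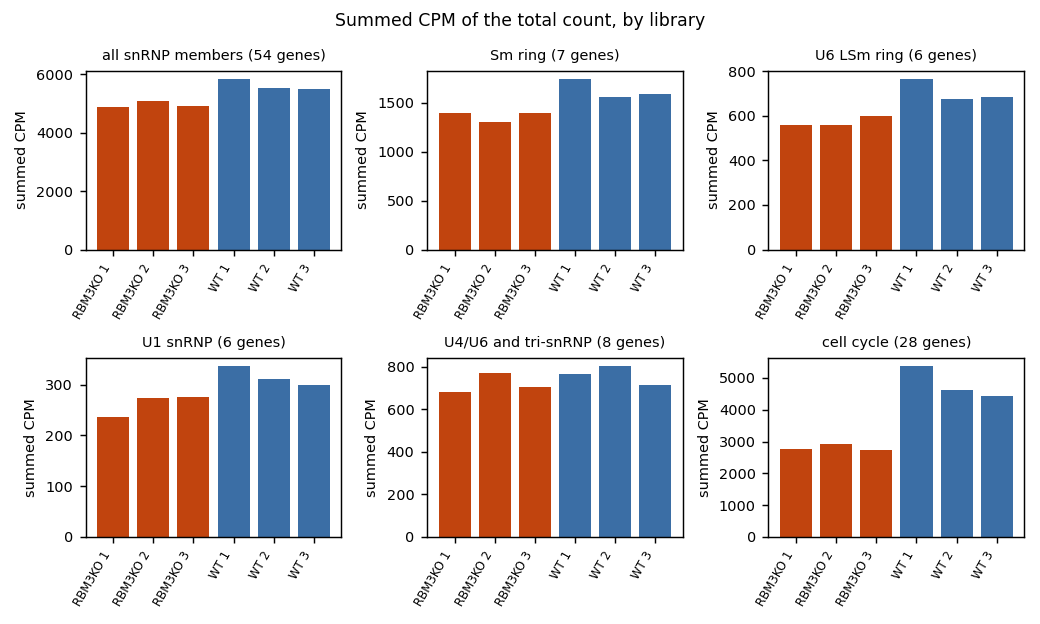
Summed CPM of the total count for all members, 4 complexes and the cell cycle list, in each library (RBM3KO orange, WT blue). The bars of the members, the Sm ring, the U6 LSm ring, the U1 snRNP and the cell cycle list are lower in each RBM3KO library than in any WT library, while the tri-snRNP bars overlap.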

How the data were processed

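The deposited table holds raw counts per gene symbol, 1 column per library, not pooled. Per the submitters' processing notes, which give no role or order, the tools were STAR 2.6.1c, Bowtie 1.0.0 and featureCounts 1.6.5, and the build was mm10. Per the labels' protocols, RNA came from a Qiagen miRNeasy kit and libraries from Smart-seq2 with Nextera XT, which in standard form mark neither strand nor molecule, so PCR copies are counted. The table holds 0 columns of other samples and 0 rows without a gene name.

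edgeR's filterByExpr kept 11382 genes with 99.9% of the counts. RBM3KO and WT were compared with edgeR 4.0.16 (R 4.3.3, TMM, robust quasi-likelihood test, no covariate), with Benjamini-Hochberg adjustment over all tested genes at 0.05. The SE is the log2 fold change divided by the square root of F. A single value cannot reach an exact permutation p under 0.1 with 3 against 3. DESeq2 1.42.0 and limma 3.58.1 were alternatives. The scripts' fit was checked on simulated data.

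The members, lists and rules were chosen with earlier results of these data known. Named members are, per complex, that with the lowest p and that with the highest mean, and listed paralogs. Others are marked. 1 member is not reported singly here. Of the lists, genes past the threshold are named, or the one with the lowest p. Coordinates, exon lengths and GC content come from GENCODE M21, which is on the same assembly as mm10 (13038 symbols matched, 1200 by an older symbol, 178 unmatched), and promoters from RefSeq.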

Additional observations from a re-analysis of the deposited data

How the results depend on the processing

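With every alternative run (15 settings), 0 snRNP members were higher, and the members lower were 0 except with DESeq2, which called 1, Lsm2. The members' median log2 fold change stayed between -0.18 and -0.13, and 37 to 41 estimates were below 0. Members with no overlap numbered 15 to 22 lower and, without each library in turn, 1 to 6 higher, with 0 higher at equal depth. Of all tested genes, 14.1% to 16.0% were lower and 12% to 14.0% higher without overlap when 1 library was left out, and 10.7% lower and 8.82% higher at equal depth. These counts without overlap, and that of estimates below 0, were chosen after seeing the data. Other spliceosome genes lower numbered 1 (Ppil1) with limma-voom, with no filter, with the replicate block, at equal depth and with the stricter filter (10 CPM in 3 libraries), and 2 (Ppil1 and Strap) with DESeq2. Leaving out 1 library gave 0 to 1 lower and 0 to 1 higher. Over all tested genes other than Rbm3, 28 were higher and 113 lower. The higher count was 48 with no filter, 59 at 10 CPM, 52 with limma-voom and 153 with DESeq2, which gave 258 lower, and leaving out 1 library gave 1 to 18 higher and 10 to 84 lower. Estimates near 0 changed sign. Leaving out 1 library put the log2 fold change of Lsm1 between -0.019 and 0.25 (below 0 without RBM3KO replicate 1), that of U2af1 between -0.21 and 0.042 (above 0 without RBM3KO replicate 3) and that of Lsm14a between -0.26 and 0.27 (above 0 without RBM3KO replicate 1, WT replicate 2 or WT replicate 3). Lsm14a was also above 0 with DESeq2's size factors in edgeR (0.0016), with DESeq2 (0.0031) and at equal depth (0.050). The cause was not tested. Whether the replicate numbers pair the libraries cannot be decided from these values. Correlations of same-numbered deviations were 0.06, 0.06 and 0.01. RBM3KO replicates 1 and 2 correlated best with the WT library of the same number, and RBM3KO replicate 3 with WT replicate 2 (0.02). The replicate block left 0 members called, 31 genes higher and 117 lower overall. Depth limits Lsm14b, Prpf39, Prpf40b and Snrnp35.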
